A study of Mus musculus with 6 samples.

Results

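A set of 9 genes through which an olfactory sensory neuron chooses, delivers and stabilises its odorant receptor was followed in the nasal tissue of mice fed with or without sufficient zinc. The genes were taken by name: Kdm1a, Ldb1 and Lbr for receptor choice, Rtp1, Rtp2 and Reep1 for receptor trafficking, and Eif2ak3, Ddit3 and Atf5 for the feedback that ends the choice. The deposited table held all 9 among its 41709 genes. It listed 8 under the exact name, and Ddit3 as a pair of entries with a number added, of which the one with the identifier ENSMUSG00000025408 was used and the other had 0 counts in each library. All 9 were among the 18427 genes tested. Tissue came from the rear nasal septum, mucosa and bone together, of mice kept on either diet between 4 and 8 weeks of age. RNA left after ribosomal RNA depletion was sequenced in 3 libraries from each diet, with replicate numbers 4, 5 and 6. The labels give no strain or sex. Whether a library is 1 mouse is not stated in them, so the spread that p-values measure is that between these libraries and may be in part technical.

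Each mature olfactory neuron expresses a single odorant receptor gene out of a large family. Receptor loci lie in silenced chromatin, and work in mice describes how the demethylase Kdm1a is needed for a receptor gene to switch on, how the adaptor Ldb1 joins enhancers bound by Lhx2 and Ebf proteins into a hub, and how loss of the nuclear envelope protein Lbr lets the silent loci gather in the nuclear interior. The first receptor protein made is sensed in the endoplasmic reticulum by the kinase Perk, the product of Eif2ak3. Perk phosphorylates the translation factor eIF2alpha, which lets Atf5 mRNA be translated, and Atf5 protein drives the neuron's maturation. The products of Rtp1 and Rtp2 let many receptors leave the reticulum. Atf5 is thus controlled to a large part at translation, which mRNA counts do not measure.

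The upstream sequences of 3 members are shown because letters resembling the core bound by Ebf proteins, CCCNNGGG, lie before Rtp2 and Reep1, and because Atf5 was the most abundant member. Each holds the 250 bases before the transcription start in RefSeq on GRCm38.p6, written from 5′ to 3′ on the strand of the gene. Capitals mark CCCNNGGG in Rtp2 (chr16:23930795-23931044, minus strand) and Reep1 (chr6:71707431-71707680, plus strand), and the GC box GGGCGG on either strand at the farther upstream of the Atf5 starts (chr7:44816659-44816908, minus strand).
Rtp2: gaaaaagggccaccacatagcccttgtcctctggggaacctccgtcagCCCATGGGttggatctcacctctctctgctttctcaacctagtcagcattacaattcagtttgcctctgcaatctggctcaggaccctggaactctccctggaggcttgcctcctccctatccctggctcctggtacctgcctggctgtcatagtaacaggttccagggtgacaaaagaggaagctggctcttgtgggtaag
Reep1: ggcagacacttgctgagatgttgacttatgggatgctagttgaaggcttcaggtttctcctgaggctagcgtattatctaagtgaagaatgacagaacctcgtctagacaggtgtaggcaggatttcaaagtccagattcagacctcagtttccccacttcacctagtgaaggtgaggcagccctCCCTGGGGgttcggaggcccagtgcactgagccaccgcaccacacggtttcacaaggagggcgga
Atf5: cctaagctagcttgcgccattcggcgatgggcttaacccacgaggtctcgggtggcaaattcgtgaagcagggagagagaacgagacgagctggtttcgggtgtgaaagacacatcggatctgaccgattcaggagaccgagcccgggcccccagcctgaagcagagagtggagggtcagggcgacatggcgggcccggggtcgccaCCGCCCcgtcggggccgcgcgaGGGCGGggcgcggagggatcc
RefSeq entries were found for 8 of the 9 members, with 11 starts in all, and Rtp1 had none in the table used. On both strands, CCCNNGGG was present before 3 of these 11 starts (Rtp2, Reep1 and 1 of the starts of Ldb1) and in 11.8% of all 32851 promoters over the same 250 bases. The letters GGGCGG were present before 6 of the 11 starts, 1 of them that of Reep1, where they are not capitalised, and in 32.7% of all promoters. Neither TAATTA, a core of Lhx2-type homeodomain sites, nor TGATGNAAT, a site of Atf4 with C/EBP partners, was found before any of the 11, against 4.84% and 0.816% of all promoters. In the CCCNNGGG match of Rtp2 the first base lay 202 bases before the start, and in that of Reep1 it lay 65 bases before it.

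The libraries held between 11731999 and 18727863 counts in genes. Markers of the olfactory epithelium were abundant, with Omp, the olfactory marker protein gene, at 2364 to 2882 CPM (counts scaled to library size, by TMM unless stated) under the control diet and 3313 to 5051 CPM under the zinc-deficient diet. All 17 genes of the mature olfactory neuron list had counts, and 16 of the 17 lay above 0 in log2 fold change (list median 0.34, all genes tested -0.0021). So did 9 of 10 immature neuron genes, 5 of 6 tested precursor genes, 5 of 8 sustentacular cell genes and 2 of 6 horizontal basal cell genes. The neuron score, the mean log2 CPM of that list, was 8.47, 8.72 and 8.46 in replicates 4, 5 and 6 of the control diet, against 8.85, 8.84 and 8.87 in those of the zinc-deficient diet. Bone and marrow also gave RNA. The marrow score, taken in the same way over genes of red cell, neutrophil and B cell precursors, was 3.71, 2.44 and 1.38 under the control diet and 4.22, 4.43 and 4.25 under the zinc-deficient diet. In such bulk tissue, fewer cells of a type and less RNA per cell cannot be told apart.

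The members differed widely in level. In the deposited RPKM, which divides by gene length, Atf5 averaged 305 over the 6 libraries, Rtp1 38.0, Rtp2 21.2, Ldb1 16.5, Reep1 7.11, Kdm1a 6.26, Ddit3 6.20, Eif2ak3 5.29 and Lbr 4.15. The first 4 steps of this order held in each of the 6 libraries. Below Ldb1, neighbours overlapped in at least 1 diet, so that the order of Reep1, Kdm1a, Ddit3, Eif2ak3 and Lbr was not separated from the spread between libraries. Atf5 mRNA took between 0.0894% and 0.176% of all gene counts in a library.

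No member passed the diet comparison. With edgeR's quasi-likelihood test and Benjamini-Hochberg adjustment over all 18427 genes, 0 of 9 had an adjusted p of 0.05 or less, against 0.119% of all genes tested (0.0868% higher, 0.0326% lower). DESeq2 and limma-voom also called 0 of 9. At an unadjusted p under 0.05 there were 3 of 9 (Atf5, Lbr and Rtp1), all higher, beside 12.9% of all genes (6.4% higher, 6.46% lower). The same 3 were the members whose CPM ranges did not overlap between the diets, all higher under the zinc-deficient diet, whereas 18.9% of all genes tested had ranges apart (9.56% higher, 9.31% lower). Over the 9, 7 had a positive and 2 a negative log2 fold change, with a median of 0.17, beside 49.7% positive and a median of -0.0021 over all genes. Of the 17 mature olfactory neuron genes, 16 were positive, with a median of 0.34. The unadjusted p was under 0.05 in 8 of the 17, all higher, and 9 had ranges apart in either direction. In the authors' deposited table the smallest FDR-adjusted p of a member was 0.0979, for Lbr.

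**Figure D1:**
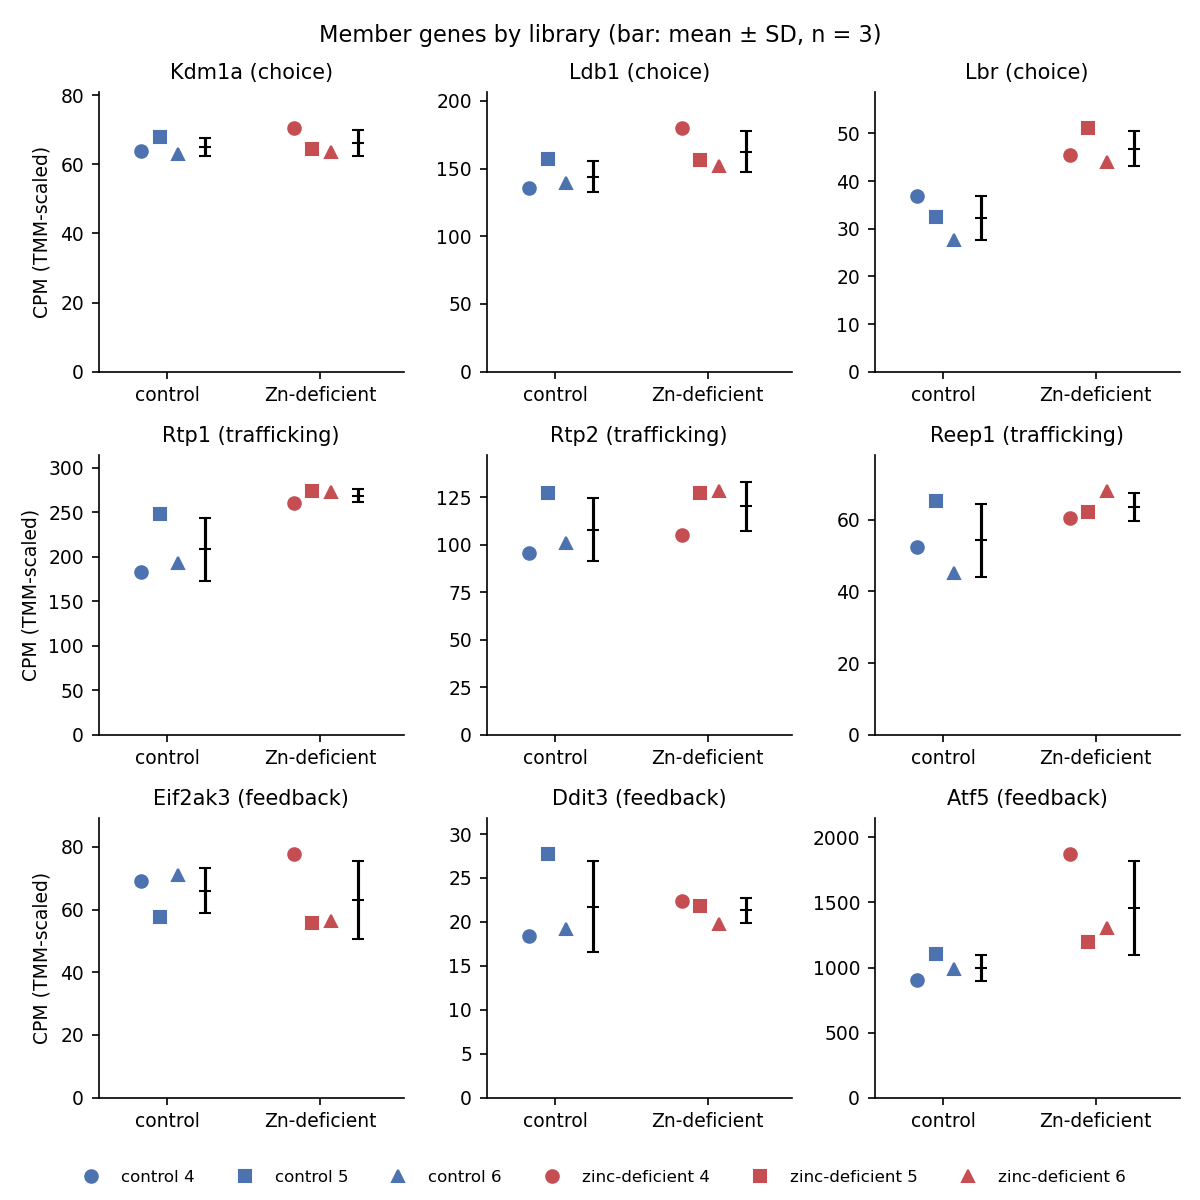
TMM-scaled CPM of each of the 9 members (vertical axes from 0) in the 3 control (blue) and 3 zinc-deficient (red) libraries, with the symbol giving the replicate number and the black bar the mean ± SD (n = 3). The diets are apart for Lbr, Rtp1 and Atf5 and overlap for the other 6, and the highest Atf5 value, 1869 CPM, is zinc-deficient replicate 4.

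**Figure D2:**
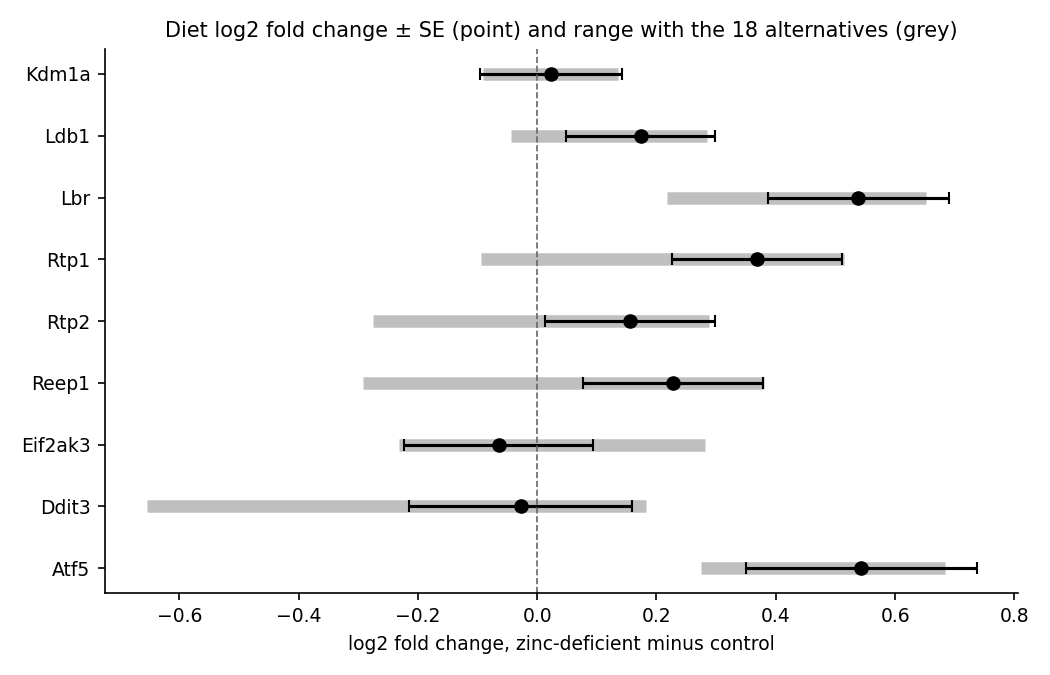
Log2 fold change (zinc-deficient minus control) of each member with its standard error as a black point and bar, and in grey the range it took with the 18 alternative settings. Atf5 and Lbr stay above 0 throughout, and each of the other 7 crosses 0 under at least 1 setting.

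Positions given for the members are those listed in the deposited table, counted from 1, on a build not given in the sources used here. Among the genes of receptor choice, Kdm1a, the lysine demethylase (chromosome 4, 136277851 to 136330034, minus strand), was nearly level between the diets. It was at 63.9, 67.9 and 63.1 CPM in replicates 4, 5 and 6 of the control diet, against 70.3, 64.3 and 63.4 CPM in those of the zinc-deficient diet. The ranges overlapped, with a log2 fold change of 0.02 (standard error, SE, 0.12, edgeR adjusted p = 0.956). The end of Kdm1a overlaps Luzp1 on the other strand, from 136277851 to 136282091, and no label states that reads were counted by strand. Luzp1 had 606 to 1039 counts per library, against 821 to 1211 for Kdm1a. The 8 listed partners of Kdm1a in its CoREST-type complex had a median log2 fold change of 0.09, with 0 past edgeR's test, 0 at an unadjusted p under 0.05 and 0 called by DESeq2 or limma-voom. Rcor1, the scaffold of that complex, was at 94.4 ± 5.03 and 97.5 ± 13.7 CPM (SD, n = 3), and Phf21a, its histone reader, at 58.5 ± 7.47 and 54.7 ± 2.27 CPM.

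Ldb1, the enhancer adaptor (chromosome 19, 46020009 to 46033653, minus strand), was at 136, 157 and 139 CPM under the control diet and at 180, 156 and 152 CPM under the zinc-deficient diet. Zinc-deficient replicate 4 was the highest, and the other 5 libraries were mixed. The start of Ldb1 overlaps Pprc1 on the other strand, which had 450 to 684 counts per library. The log2 fold change was 0.17 (SE 0.13, edgeR adjusted p = 0.594). All 10 listed factors of receptor enhancers and their adaptors were positive, with a median of 0.26. Of these, 0 passed edgeR's test, 3 had an unadjusted p under 0.05, and DESeq2 and limma-voom called 0. Ebf2 and Ebf3, genes of early B-cell factor proteins that bind receptor enhancers, were the most abundant of the list. Ebf2 averaged 306 ± 43.3 CPM in the control libraries and 357 ± 3.31 CPM in the zinc-deficient ones, with a log2 fold change of 0.22. Lhx2, the homeodomain gene of the same enhancers, was at 156, 207 and 148 CPM and at 281, 204 and 230 CPM, so that control replicate 5 lay above zinc-deficient replicate 5 (log2 fold change 0.48, SE 0.17, edgeR adjusted p = 0.274). Emx2, a further homeodomain gene of olfactory neurons, was at 28.0 ± 2.42 and 37.8 ± 2.18 CPM with ranges apart (log2 fold change 0.43, edgeR adjusted p = 0.262). The neuron score was also higher in each zinc-deficient library, and with it beside the diet the median of the list was -0.05. As no zinc-deficient library had a score within the control range, this fit cannot separate neuron content from the diet.

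Lbr, the lamin B receptor (chromosome 1, 181642900 to 181670611, minus strand), had the smallest unadjusted p of the members. It was at 36.8, 32.4 and 27.6 CPM in replicates 4, 5 and 6 of the control diet, against 45.4, 51.0 and 44.1 CPM in those of the zinc-deficient diet. Every zinc-deficient library was above every control library. The fold was 1.45, a log2 fold change of 0.54 (SE 0.15), and did not pass (edgeR adjusted p = 0.204). Lbr is expressed in many cell types and shapes the nucleus of neutrophils in humans and mice. The control libraries had the same order in Lbr and in the marrow score, which was 3.71, 2.44 and 1.38 in replicates 4, 5 and 6. It was 4.22, 4.43 and 4.25 under the zinc-deficient diet, where replicate 4 was above replicate 6 in Lbr and below it in the score. Of the neutrophil precursor genes, 9 of 10 were positive with a median of 1.89 and none was at 0 throughout, and their summed level was 411 to 2437 CPM under the control diet and 681 to 1464 CPM under the zinc-deficient diet. Ltf alone, which glands express as well, gave 282 to 2399 CPM of that sum. Of the erythroid genes, 11 of 11 tested were positive, with summed levels of 493 to 1803 and 1507 to 4248 CPM, and of the developing B cell genes 10 of 10, with 151 to 248 and 211 to 310 CPM. Ebf1, which olfactory neurons express as well, gave 135 to 224 and 182 to 226 CPM of these B cell sums. With the marrow score beside the diet the log2 fold change of Lbr was 0.22 (edgeR adjusted p = 0.915), and with the neuron score it was 0.53. No zinc-deficient library had a marrow or neuron score within the control range, so that both fits carry their slopes beyond it. The part of marrow cells in the Lbr values was not tested.

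The other genes of silent chromatin and of the nuclear envelope were mixed in direction. Of 10 writers and readers of heterochromatin, 5 were positive and 5 negative, with a median of 0.02, 0 past edgeR's test, 0 at an unadjusted p under 0.05 and 0 called by DESeq2 or limma-voom. Ehmt2, a methyltransferase gene for H3 lysine 9, ranged from 154 to 178 CPM on the control diet and from 143 to 230 CPM on the zinc-deficient one, and Cbx5, which encodes HP1 alpha, at 134 to 136 and 114 to 125 CPM, lower in each zinc-deficient library (edgeR adjusted p = 0.498). Of 12 nuclear envelope genes, 9 were positive, 0 passed edgeR's test, 3 had an unadjusted p under 0.05, DESeq2 called 1 and limma-voom 0. The large linker genes Syne2 and Syne1, the most abundant of them, had log2 fold changes of -0.23 and -0.38. Both were lower in each zinc-deficient library, with ranges apart (edgeR adjusted p = 0.497 and 0.282). Lmnb1, the gene of the lamin B1 that Lbr binds, was at 27.4, 24.0 and 27.5 CPM in the control libraries and at 53.7, 41.4 and 33.1 CPM in those of the zinc-deficient diet, with ranges apart (log2 fold change 0.70, SE 0.18, edgeR adjusted p = 0.182).

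**Figure D3:**
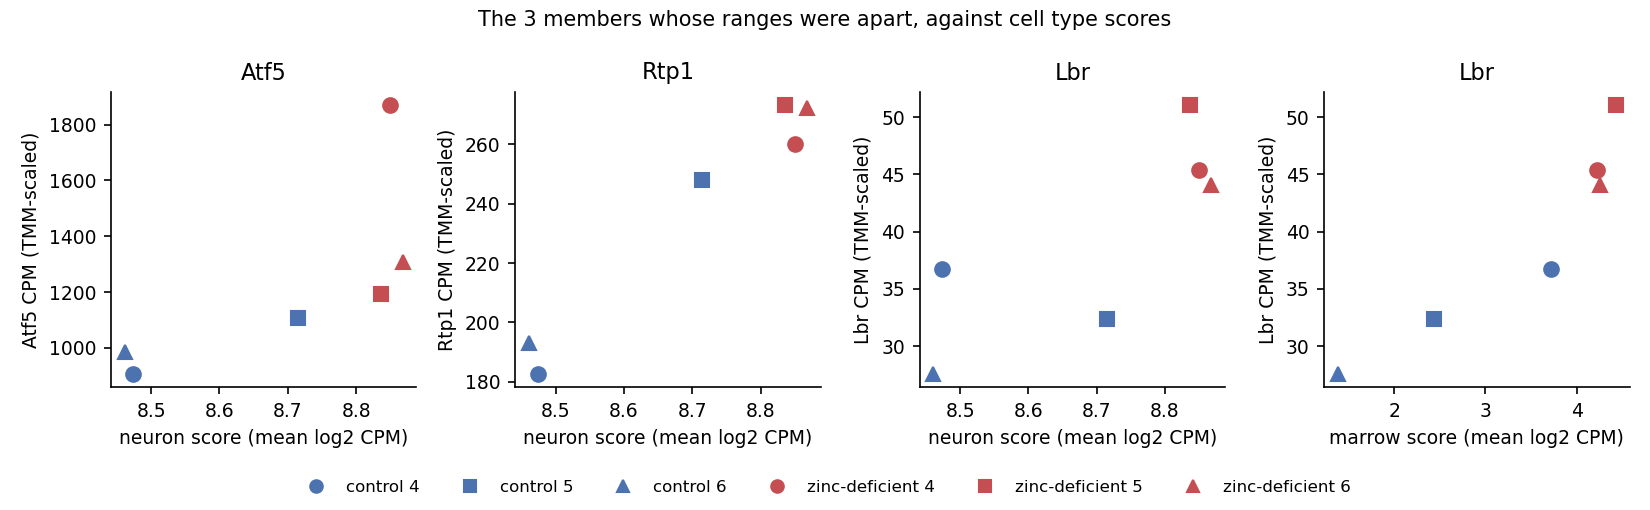
CPM of Atf5, Rtp1 and Lbr (vertical axes, not starting at 0) against the neuron score, and of Lbr also against the marrow score (mean log2 CPM of each marker list), with 1 symbol per library, control in blue and zinc-deficient in red. Atf5 and Rtp1 are lowest in the 2 libraries with the lowest neuron scores, control replicates 4 and 6, and Lbr is lowest in the library with the lowest marrow score, control replicate 6.

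Among the trafficking genes, Rtp1 was higher in each zinc-deficient library, whereas Rtp2 and Reep1 overlapped between the diets. Rtp1, a receptor transporting protein gene (chromosome 16, 23247883 to 23252710, plus strand), was at 183, 248 and 193 CPM in replicates 4, 5 and 6 of the control diet, against 260, 273 and 272 CPM in those of the zinc-deficient diet. Control replicate 5 was close to the zinc-deficient libraries, and it also had the highest neuron score of the controls. The log2 fold change was 0.37 (SE 0.14, edgeR adjusted p = 0.322), and 0.51 without control replicate 5 (edgeR adjusted p = 0.128). That was the highest value and the lowest adjusted p of Rtp1 over the 18 alternatives. The lowest value, with the neuron score beside the diet, was -0.0943.

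Rtp2, its paralogue on the same chromosome (chromosome 16, 23744298 to 23751144, minus strand), was at 95.7, 127 and 101 CPM under the control diet and at 105, 127 and 128 CPM under the zinc-deficient diet. The ranges overlapped, with a log2 fold change of 0.16 (SE 0.14, edgeR adjusted p = 0.686). The ratio of the related genes was also taken, after the counts had been seen. It cannot show whether they share reads in counting, and the share of other gene pairs with ratio ranges apart was not taken. Rtp1 had 1.91, 1.95 and 1.91 counts per Rtp2 count in the control libraries and 2.47, 2.15 and 2.13 in those of the zinc-deficient diet. The ratio was thus nearly constant under the control diet and higher in each zinc-deficient library, by 0.32 (two-sided exact permutation p = 0.1, which no 3 against 3 split can go below). Without zinc-deficient replicate 4 the difference was 0.21, and with any other library left out it was between 0.32 and 0.38.

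Reep1, a gene for a protein that shapes the tubular endoplasmic reticulum and raises receptor display in cultured cells (chromosome 6, 71684545 to 71787694, plus strand), was at 52.4, 65.3 and 45.1 CPM and at 60.4, 62.2 and 67.9 CPM. Control replicate 5 lay inside the zinc-deficient range, and the log2 fold change was 0.23 (SE 0.15, edgeR adjusted p = 0.558). Of 7 relatives in the Rtp and Reep families, 6 were tested and 4 of these were positive, with a median of 0.11. None of the 6 passed edgeR's test, 1 had an unadjusted p under 0.05, and DESeq2 and limma-voom called 0. The most abundant were Reep5, a reticulum-shaping gene of most tissues, at 85.6 ± 24.6 and 65.3 ± 2.99 CPM, and Reep3 at 71.5 ± 2.58 and 60.0 ± 10.2 CPM. Their log2 fold changes were -0.39 and -0.25, opposite in sign to Reep1.

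The receptors themselves were followed as a sum, since single receptor genes have few counts. Of 1195 listed odorant receptor genes, pseudogene names included, between 934 and 1025 had counts in a library. Their summed level was 1550, 2142 and 1399 CPM of the column total in replicates 4, 5 and 6 of the control diet, against 1333, 2289 and 2010 CPM in those of the zinc-deficient diet. The lowest of all 6 was zinc-deficient replicate 4, the library highest in Atf5 and Omp, and the ranges overlapped (difference 180 CPM, two-sided exact permutation p = 0.8). Leaving out zinc-deficient replicate 5 turned the difference to -25.6 CPM, and leaving out any other library gave between 31.3 and 452 CPM. Of 672 receptor genes tested, 0 passed edgeR's test and 32 had an unadjusted p under 0.05, a rate below the 12.9% of all genes. A positive log2 fold change was seen in 403 of the 672, with a median of 0.11.

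In the feedback arm, Eif2ak3 and Ddit3 were close to level while Atf5 was higher in each zinc-deficient library. Eif2ak3, the Perk gene (chromosome 6, 70821499 to 70882229, plus strand), was at 69.1, 57.7 and 71.0 CPM in replicates 4, 5 and 6 of the control diet, against 77.6, 55.6 and 56.3 CPM in those of the zinc-deficient diet. Zinc-deficient replicate 4 held the highest value and zinc-deficient replicate 5 the lowest. The log2 fold change was -0.06 (SE 0.16, edgeR adjusted p = 0.900), and its sign turned under 5 of 18 alternatives, among them leaving out zinc-deficient replicate 5 or 6. The other eIF2alpha kinases, eIF2alpha and its phosphatase genes, 7 in all, had a median of 0.11, with 0 past edgeR's test, 1 at an unadjusted p under 0.05 and 0 called by DESeq2 or limma-voom. Ppp1r15b, the constitutive phosphatase adaptor of eIF2alpha, was at 282 ± 21.7 and 304 ± 38.9 CPM, and Ppp1ca, a catalytic subunit gene, at 93.5 ± 6.84 and 110 ± 0.282 CPM.

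Ddit3, which encodes the transcription factor CHOP (chromosome 10, 127126643 to 127132157, plus strand), had between 236 and 377 counts per library. It was at 18.4, 27.7 and 19.2 CPM under the control diet and at 22.4, 21.8 and 19.7 CPM under the zinc-deficient diet. Control replicate 5 was the highest and all 3 zinc-deficient libraries lay within the control range. The log2 fold change was -0.03 (SE 0.19, edgeR adjusted p = 0.966), and its sign turned under 5 of 18 alternatives. Leaving out control replicate 5 gave 0.18 (edgeR adjusted p = 0.680), and the neuron score beside the diet gave -0.65 (edgeR adjusted p = 0.677). The end of Ddit3 overlaps Mars1 on the other strand, from 127132090 to 127132157, and Mars1 had 682 to 1101 counts per library, more than Ddit3.

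Atf5, the basic leucine zipper gene at the end of this arm (ENSMUSG00000038539, chromosome 7, 44461680 to 44466082, minus strand), was at 908, 1106 and 986 CPM in replicates 4, 5 and 6 of the control diet, against 1869, 1195 and 1307 CPM in those of the zinc-deficient diet. The ranges were apart, but zinc-deficient replicate 5 exceeded control replicate 5 by little, and zinc-deficient replicate 4 stood far above the rest. The means were 1000 ± 99.9 and 1457 ± 361 CPM (SD, n = 3), a fold of 1.46 and a log2 fold change of 0.54 (SE 0.19), and did not pass (edgeR adjusted p = 0.290). Without zinc-deficient replicate 4 the log2 fold change was 0.33 (edgeR adjusted p = 0.461). DESeq2 gave 0.55 with an adjusted p of 0.0641, and the authors' deposited table gave 0.55 with an FDR-adjusted p of 0.554. The same library was the highest in Omp, at 5051 CPM against 3344 and 3313 CPM in the other zinc-deficient libraries, and in Lhx2. The first bases of Atf5 overlap Nup62 and Il4i1 on the other strand, which had 257 to 486 and 24 to 54 counts per library against 11670 or more for Atf5.

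Genes downstream of the stress kinases did not move as 1 group. Of 18 tested targets of Atf4 and CHOP, 7 were positive and 11 negative, with a median of -0.05. None passed edgeR's test, 4 had an unadjusted p under 0.05, DESeq2 called 2 (1 higher, 1 lower) and limma-voom 0. Slc7a5, an amino acid transporter gene, and Atf4, the transcription factor gene itself, were the most abundant. Atf4 was at 144 ± 12.5 and 137 ± 12.9 CPM, with a log2 change of -0.07 (edgeR adjusted p = 0.854). Nupr1, a stress-induced chromatin protein gene, stood apart in the list. It was at 83.8, 48.6 and 101 CPM under the control diet and at 30.5, 25.4 and 34.9 CPM under the zinc-deficient diet, with ranges apart (log2 fold change -1.36, SE 0.24, edgeR adjusted p = 0.0849). Ddit4, an inhibitor gene of mTORC1 signalling, was in the opposite direction, at 46.4 ± 13.3 and 75.3 ± 13.6 CPM (log2 fold change 0.70, edgeR adjusted p = 0.216).

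The remaining arms of the unfolded protein response, led by Ire1 and Atf6, were lower in 11 of 12 genes, with a median of -0.38. None passed edgeR's test, 6 had an unadjusted p under 0.05, DESeq2 called 1 and limma-voom 0. Ranges were apart in 3 of the 12. The summed level of the list was 2011, 1507 and 2221 CPM in replicates 4, 5 and 6 of the control diet. It was 1455, 1395 and 1535 CPM in those of the zinc-deficient diet, so that control replicate 5 lay within their range. Ern1, the Ire1 gene, and Atf6 had log2 fold changes of -0.13 and -0.12. With the neuron score beside the diet the median of this list turned to 0.15. The scores of the diets did not overlap, so that fit cannot separate neuron content from the diet. Calr and Sel1l, the reticulum chaperone gene and the degradation adaptor gene that were most abundant, had log2 fold changes of -0.40 and -0.41. The ranges of Calr overlapped between the diets, and those of Sel1l were apart. Xbp1, the transcription factor gene activated by Ire1, was at 184, 117 and 244 CPM and at 112, 93.0 and 113 CPM (log2 fold change -0.78, SE 0.23, edgeR adjusted p = 0.226). All 11 osteoblast genes, which mark a secretory cell type of the dissected bone, were negative as well, with a median of -0.78, none at 0 throughout, and summed levels of 11968 to 20297 and 6569 to 13745 CPM, and their part in these values was not tested. Atf5 is described as a regulator of some mitochondrial chaperone and protease genes in mitochondrial stress. Of 8 genes listed for these functions, not all of them known targets, 3 were positive, with a median of -0.07. Among the 8, 0 passed edgeR's test, 1 had an unadjusted p under 0.05 and 0 were called by DESeq2 or limma-voom. Hspa9 and Lonp1, the most abundant of them, had log2 fold changes of -0.20 and 0.20.

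**Figure D4:**
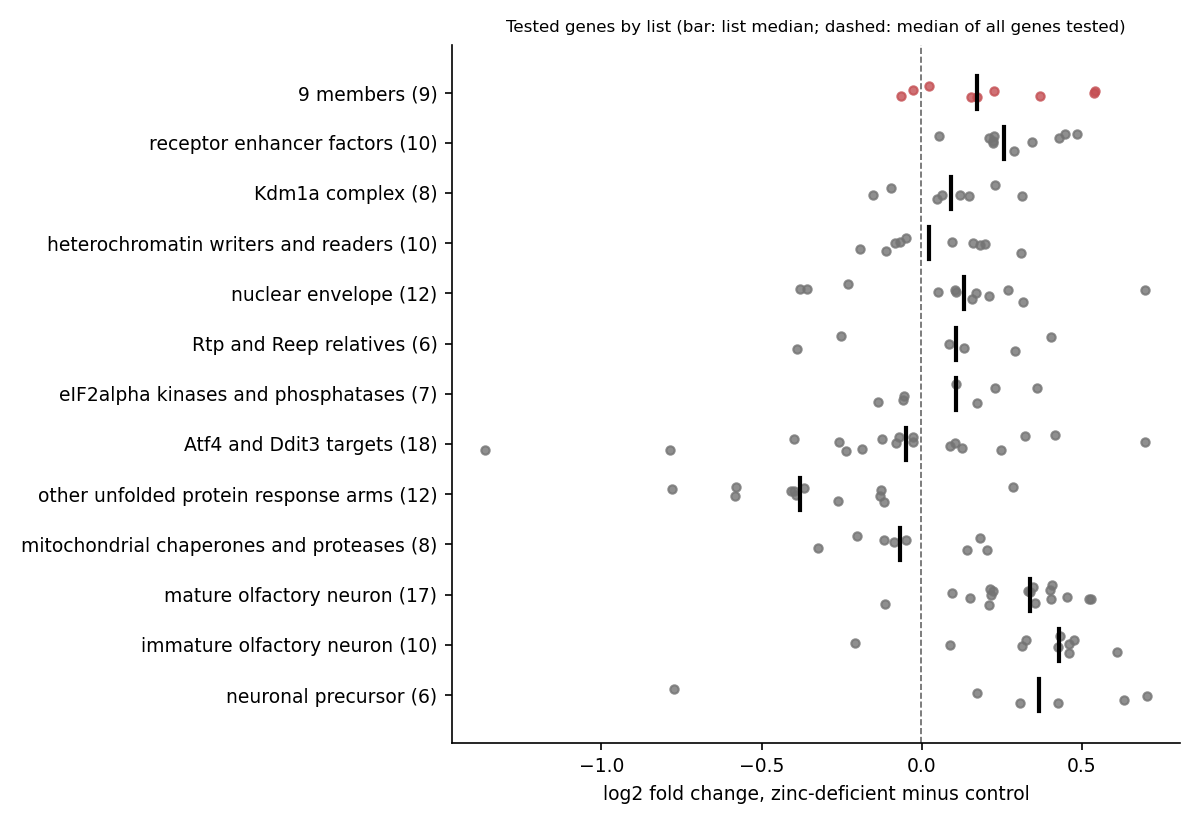
Log2 fold changes (zinc-deficient minus control) of the 9 members (red) and of the tested genes of 12 lists (grey), with the number tested in brackets, the list median as a black bar and the median of all genes tested as a dashed line. The medians run from -0.38 for the other arms of the unfolded protein response to 0.43 for immature olfactory neuron genes, with the members at 0.17.

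Because neuron scores did not overlap between the diets, each member was also set against them within its own library, as its log2 CPM minus the neuron score. None of these 9 comparisons could reach 0.05, because 3 against 3 allows no exact p under 0.1. On this scale Kdm1a was lower in each zinc-deficient library, at -2.47, -2.63 and -2.48 in replicates 4, 5 and 6 of the control diet, against -2.71, -2.83 and -2.88 in those of the zinc-deficient diet, a difference of -0.28 (two-sided exact permutation p = 0.1). Ddit3 was likewise lower in each, at -4.27, -3.92 and -4.19 against -4.36, -4.38 and -4.56, a difference of -0.31 (two-sided exact permutation p = 0.1). Both genes were near level in CPM, and the neuron score itself was 0.30 higher under the zinc-deficient diet. A gene level in CPM thus falls by about that much on this scale. The share of all genes with ranges apart on it was not taken. The other 7 members overlapped between the diets. The difference was 0.08 for Rtp1 (two-sided exact permutation p = 0.3), 0.22 for Atf5 (exact p = 0.5), 0.24 for Lbr (exact p = 0.3) and -0.38 for Eif2ak3 (exact p = 0.2). That of Atf5 rested on zinc-deficient replicate 4, at 2.018. Zinc-deficient replicates 5 and 6, at 1.387 and 1.484, lay within the control range of 1.352 to 1.485. Ldb1, Rtp2 and Reep1 had differences of -0.13, -0.14 and -0.06 (exact p = 0.3, 0.3 and 0.6). With Omp alone as the reference, the difference of Rtp1 was -0.12, opposite in sign. Olfactory neurons are not the only source of Kdm1a, Ddit3, Lbr, Ldb1 and Eif2ak3, which most cells express, so for these the scale is not a level per neuron.

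**Figure D5:**
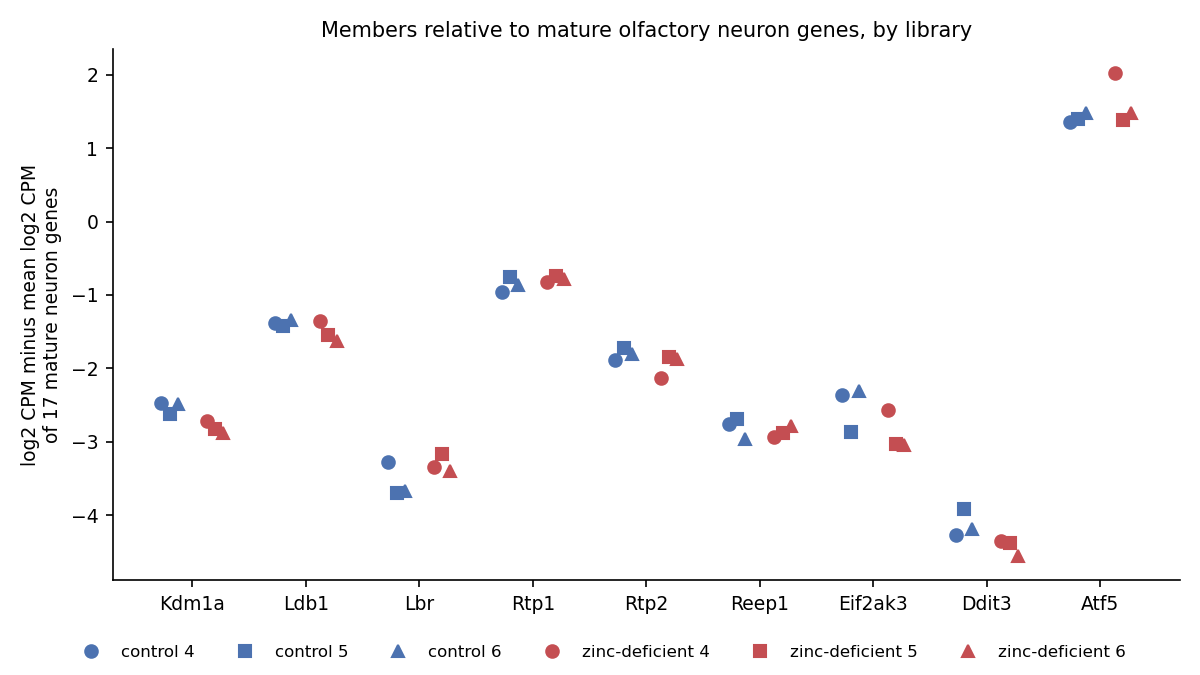
Each member's log2 CPM minus the mean log2 CPM of 17 mature olfactory neuron genes (vertical axis) by library, control in blue on the left and zinc-deficient in red on the right of each gene. Kdm1a and Ddit3 are lower in all 3 zinc-deficient libraries, and the diets overlap for the other 7. The mean of the 17 genes is itself 0.30 higher under the zinc-deficient diet, so a gene level in CPM lies lower here.

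Genes whose log2 CPM followed a member most closely over the 6 libraries were found among 12444 genes with a mean of at least 5 CPM. Every member had a gene with a Pearson r of 0.987 or more among so many candidates, and over 6 points that share depth and diet the values are only a description of these libraries. The genes nearest to Lbr were Prtn3, the proteinase 3 gene of neutrophil precursors (r = 0.995), and Parvg, a parvin gene of blood cells (r = 0.991). Prtn3 was at 6.30, 3.02 and 1.83 CPM in replicates 4, 5 and 6 of the control diet, against 12.7, 19.0 and 12.6 CPM in those of the zinc-deficient diet. Since Prtn3 was picked for its r with Lbr, a like order of the libraries follows from that choice. Atf5 was followed most closely by Msi1, an RNA-binding protein gene (r = 0.998), and Klhl36 (r = 0.998), and H2-DMb2 was among the closest to Rtp1 (r = 0.993). Saal1 was the closest to Rtp2 (r = 0.987). For Reep1 the closest were Pacs2 and Mybl1 (r = 0.989 and 0.987), for Ldb1 Ppp2r5b and Psd (both r = 0.997), for Kdm1a Togaram2 and Prpf40b (r = 0.997 and 0.991), for Eif2ak3 Pdgfa and Acad8 (r = 0.995 and 0.994), and for Ddit3 Hp1bp3 and Rab36 (r = 0.991 and 0.990).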

How the data were processed

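Per the file headers, the table the authors deposited gives total counts and RPKM of 41709 genes in 6 libraries. It also holds their comparison of the diets (log2 fold change, p-value, FDR-adjusted p-value), empty for 13739 genes. The sources used here do not name the aligner, counting tool, build, annotation or test of that comparison. In addition, the table's other 12 per-library columns and 4 shorter lists, none of which holds a member, were not used. Libraries were made from 500 ng of total RNA after ribosomal RNA depletion, per the labels.

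The diet test was edgeR 4.0.16 under R 4.3.3 (quasi-likelihood, robust, TMM, filterByExpr, diet as the only term, two-sided, Benjamini-Hochberg over all genes at 0.05). Each SE was obtained from the test, by dividing the size of the log2 fold change by the root of F. Log2 CPM used a prior count of 2. The fit was tested on simulated data, with the same dispersion for every gene and log2 changes larger than that of any member. That test does not tell how well changes of the members' size are found in these libraries. Alternatives used DESeq2 1.42.0 and limma 3.58.1 (voom, and log2(RPKM + 1) or log2(RPKM + 0.1) where either diet averaged 1 RPKM or more), other scalings, filters and covariates, a replicate block and leaving out each library. Libraries of a diet differed by more than sampling noise in each pair. Members and lists were chosen with earlier results of these data known. Named were all members, the 2 most abundant genes of each pathway list and any past the test, and the 2 genes most like each member (2 of these genes are not reported here); Lhx2, Emx2, Lmnb1, Nupr1, Ddit4, Xbp1, Omp, Prtn3 and Ltf, and the ratio of Rtp1 to Rtp2, were chosen after their values were seen. Igll1 was the only gene of the cell type lists past the test (log2 fold change 4.34, edgeR adjusted p = 0.0373). It had 4, 0 and 2 counts in replicates 4, 5 and 6 of the control diet, against 48, 52 and 56 in those of the zinc-deficient diet. The size of that fold thus rests on control counts near 0.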

Additional observations from a re-analysis of the deposited data

How the results depend on the processing

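Of the 9 members, 0 passed under each of the 18 alternatives, the replicate block included. Over those alternatives Atf5 kept a positive log2 fold change (0.27 to 0.68) and so did Lbr (0.22 to 0.65), with adjusted p between 0.0641 and 0.874 and between 0.0716 and 0.915. With the neuron score beside the diet the sign turned for Rtp1 (-0.0943), Rtp2 (-0.275), Reep1 (-0.2915), Ldb1 (-0.0433), Kdm1a (-0.0906) and Eif2ak3 (0.281). No zinc-deficient library had a neuron score within the control range. This fit thus carries its slope beyond that range and cannot separate neuron content from the diet. With log2(RPKM + 0.1) and log2(RPKM + 1), whose median over all genes was 0.12 and 0.09, Ddit3 turned to 0.107 and 0.0916 and Eif2ak3 to 0.0384 and 0.0324. With the marrow score Ddit3 was at 0.0464, and with the neuron score at -0.65. Leaving out a library gave -0.126 to 0.182 for Ddit3, -0.231 to 0.0202 for Eif2ak3 and -0.0161 to 0.0562 for Kdm1a. Relative to Omp alone, Rtp1 differed by -0.12. The summed receptor CPM differed by between -25.6 and 452 without 1 library.

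The count over all genes, 22, was 344 with DESeq2, 172 without the low-count filter, 153 with the replicate block, 10 and 14 with log2(RPKM + 0.1) and log2(RPKM + 1), 2 with the marrow score, 0 with the neuron score, and 9 to 50 without 1 library (50 without control replicate 4, 9 without control replicate 5 or 6 or zinc-deficient replicate 5). The 0 calls in the pathway lists became 4 with DESeq2, 1 without the low-count filter, 1 with the replicate block and 0 to 1 without 1 library (1 without control replicate 5). The 1 call in the cell type lists became 12, 5, 11 and 0 to 3 in the same order, and 0 with either RPKM fit or either score. It was also 0 without marrow genes and the 10 most abundant genes, a setting that leaves out Igll1, the gene called. For the other settings the cause was not tested. Pathway list medians that changed sign with the neuron score were those of the receptor enhancer factors (-0.05), the Kdm1a complex (-0.09), heterochromatin (-0.13), Atf4 and Ddit3 targets (0.19), the other unfolded protein response arms (0.15) and mitochondrial chaperones (0.16). The limit given above for the fit with that score holds here too. Same-numbered libraries deviated from their diet's mean with correlations of -0.048, 0.151 and 0.068 over 18427 genes. Between unlike-numbered libraries these were -0.179 to 0.0944. The values do not settle whether the numbers pair libraries. The main fit did not pair them, and the replicate block was an alternative. Depth was lowest for Ddit3, at 236 to 377 counts per library.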
